A study of Mus musculus with 9 samples.

Results

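The genes described here are Cd14 and the Toll-like receptors Tlr1 to Tlr9, 10 genes out of 32451 genes or accessions on the array, and 10 of the 26325 that could be tested. They were taken by name: every non-control probe whose transcript accession mapped to 1 of these symbols was used, which gave 11 probes of 39429, 1 for each gene and 2 for Tlr7. Expression had been measured in spleens of female BALB/c mice on 9 Agilent 1-colour whole-genome arrays, 1 array per sample. The groups, of 3 samples each, were mice with Graves' disease on a normal dietary selenium supply (normal Se GD), mice with Graves' disease whose supply was low (low Se GD) and mice without the disease on a low supply (low Se non-GD). Setting the diseased groups against each other addresses the selenium supply, and setting the low supply groups against each other addresses the disease. There was no group without disease on a normal supply, so the normal Se GD and low Se non-GD samples differ in both disease and diet, which cannot be told apart between them. The labels do not say how the disease was brought about, how the diets were made up, how old the mice were or whether samples came from separate animals, and the p-values therefore reflect only how much these samples vary among themselves, which may be technical variation.

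Toll-like receptors recognise conserved molecules of microbes and, for some members, nucleic acids of the host. Cd14 binds bacterial lipopolysaccharide and hands it to the complex of Tlr4 and Ly96, Tlr2 pairs with Tlr1 or Tlr6 to recognise lipopeptides, and Tlr5 recognises flagellin, all at the cell surface. Tlr3, Tlr7, Tlr8 and Tlr9 sit in endosomes and recognise RNA or DNA. All but Tlr3 signal through the adaptor Myd88, while Tlr3 uses Ticam1, and the routes end in NF-kappaB and interferon regulatory factors. In the spleen the receptors are known from macrophages, dendritic cells and B cells, each of which carries its own selection.

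Levels are given as the log2 of a spot's background-corrected signal minus the 75th percentile of that signal on the same array, so a level of 0 is as bright as that percentile. A level belongs to its probe and is compared between groups, never between genes. A gene is called when its adjusted p in a limma fit over all 9 arrays is under 0.05, and a spot is called well above background by the mark in the scanner file. The number of arrays, 3 a group, limits the precision of every value.

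The arrays themselves differed. On normal Se GD replicate 3, 58.4% of non-control spots were well above background, against 72.6% to 82.6% on the other 8. Slides were inferred, by taking arrays with the same scan time in the scanner headers to share a slide. So defined, slide 1 held low Se GD replicate 1 and all 3 low Se non-GD arrays. Slide 2 held normal Se GD replicates 1 and 2 with low Se GD replicates 2 and 3, and slide 3 held normal Se GD replicate 3. Slide and group therefore largely coincide. No slide held both normal Se GD and low Se non-GD arrays, so slide cannot be told apart from disease and diet between them. A fit with slide as a block links these groups only through low Se GD arrays. In each group 1 array lay between the other 2 for most of 18541 genes, normal Se GD replicate 1 for 55.0%, low Se GD replicate 2 for 69.0% and low Se non-GD replicate 3 for 78.3%, and results are also given without low Se GD replicate 2 and low Se non-GD replicate 3. A probe for the ribosomal RNA gene Rn28s1 read 3.0 to 5.99 on the 6 arrays of diseased mice and 0.45 to 0.83 on the 3 low Se non-GD arrays, and its part in the differences described here was not tested. The E1A control spots a107 split the arrays too, at 0.87 to 2.51 on the arrays of diseased mice and 4.72 to 5.85 on the low Se non-GD arrays, and their part was likewise not tested. The transcription factors Tlx1 and Nkx2-5, which mark spleen, were well above background in all 3 groups.

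**Figure D1:**
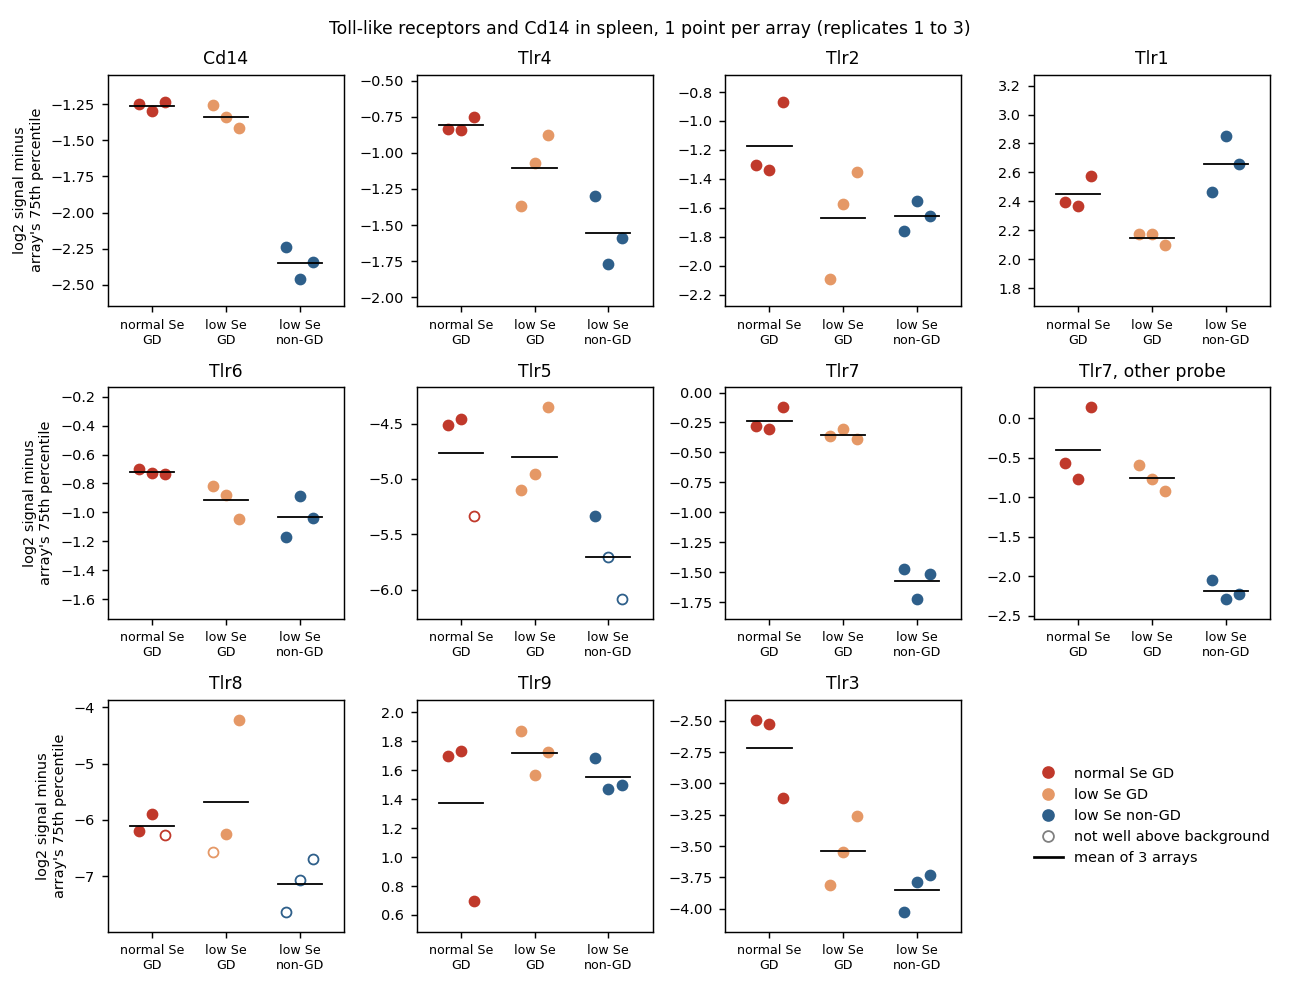
Level of each probe for Cd14 and the Toll-like receptors on each array, in log2 units relative to the 75th percentile of its array, with normal Se GD, low Se GD and low Se non-GD from left to right in each panel. Each point is 1 array, black lines are means of 3 arrays and open points are not well above background. The low Se non-GD points of Cd14 and of both Tlr7 probes lie apart from and below the points of both diseased groups, while for Tlr1 the low Se GD points lie lowest.

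In diseased mice on a low selenium supply, set against mice without disease on the same supply, Cd14 and Tlr7 were higher and Tlr1 was lower. Cd14 was 2.01-fold and Tlr7 2.33-fold higher, and Tlr1 was 1.42-fold lower. The other 7 members did not pass the test. The count of 3 called of 10 stands beside 24.9% of all genes tested, the 2 higher beside 12.8% and the 1 lower beside 12.2%. The 3 arrays of each group did not overlap for 5 of the 10 members, with Cd14, Tlr5, Tlr7 and Tlr8 higher and Tlr1 lower in low Se GD, against 53% of all genes. In low Se non-GD, Tlr8 was below the detection mark on every array (0 of 3), and it passed the detection filter through the diseased groups, and without it the count is 4 of 9. The median log2 difference over the 10 members was 0.38, or 0.31 without Tlr8, which was below background in 1 group, against 0.076 over all genes. Without low Se GD replicate 2 and low Se non-GD replicate 3, only Tlr7 was called, and within slide 1, which leaves 1 low Se GD array, limma called 0, while Cd14 and Tlr7 then differed by about as much as with all arrays. With slide as a block the count was 2, Tlr1 being lost. The differences estimated with slide as a block are those within slide 1, so these are not separate checks.

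In diseased mice on a normal selenium supply, set against diseased mice on a low supply, none of the 10 members was called by limma (0 of 10, against 1.27% of all genes). At an unadjusted p under 0.05, 3 were higher, Tlr1, Tlr2 and Tlr3, against 12.7% of all genes. The 3 normal Se GD arrays lay above all 3 low Se GD arrays for 5 members, Tlr1, Tlr2, Tlr3, Tlr4 and Tlr6, which stands beside 17.9% of all genes. The median log2 difference was 0.15 over the members and 0.00030 over all genes. Tlr3 was called in 4 of 22 alternatives, among them without normal Se GD replicate 3.

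In diseased mice on a normal supply, set against mice without disease on a low supply, Cd14, Tlr3, Tlr4 and Tlr7 were higher and no member was called lower. These are 4 of 10, against 32.3% of all genes in either direction, 18.9% higher and 13.4% lower. The groups did not overlap, with normal Se GD above, for 7 members, Cd14, Tlr2, Tlr3, Tlr4, Tlr6, Tlr7 and Tlr8, which stands beside 28% of all genes, and without Tlr8 they are 6 of 9. The median log2 difference was 0.84, or 0.74 without Tlr8, against 0.06 over all genes. Without normal Se GD replicate 3 Tlr5 was called too, and with slide as a block, or without low Se GD replicate 2 and low Se non-GD replicate 3, Tlr4 was not. The groups compared here share no slide, so slide cannot be told apart from the other differences. This comparison shares its low Se non-GD arrays with the comparison at low supply, so the values of both are given side by side and are not independent.

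**Figure D2:**
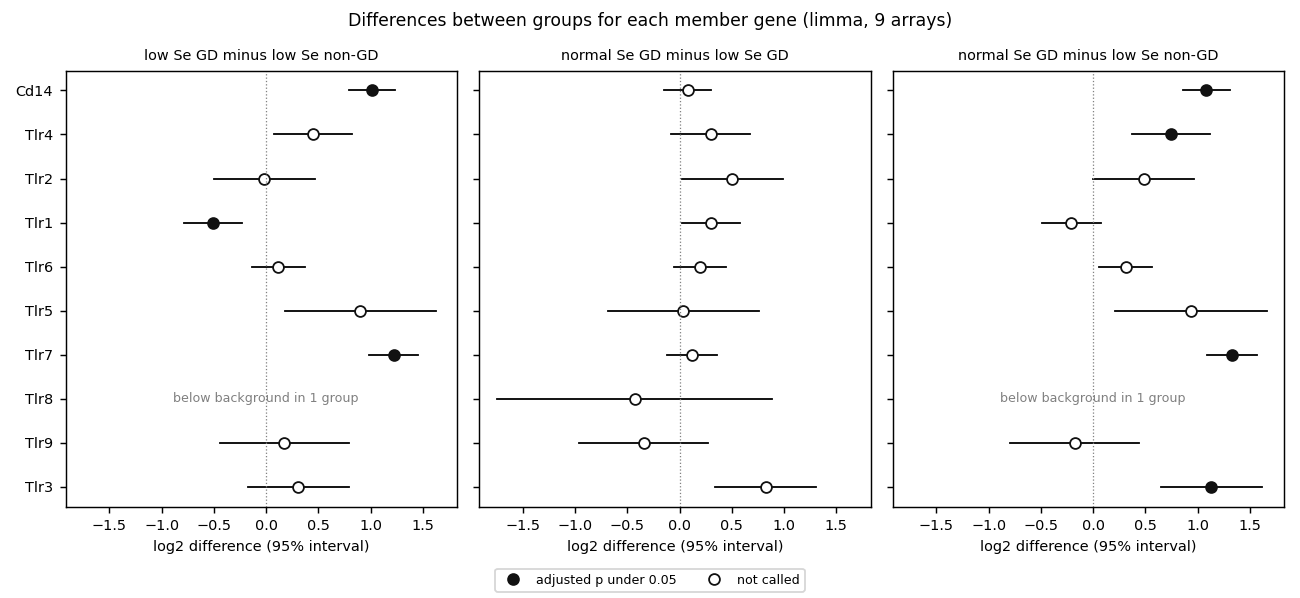
Log2 difference of each gene between groups (x axis) in the 3 comparisons, with 95% intervals from limma, filled where the adjusted p was under 0.05. Cd14 and Tlr7 are at 1.01 and 1.22 in the left panel and at 1.08 and 1.33 in the right one, and all intervals in the middle panel belong to genes that were not called. Tlr8 has no difference drawn where the low Se non-GD group was below background.

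Cd14, the lipopolysaccharide-binding co-receptor of monocytes and macrophages, was at -1.25, -1.30 and -1.23 in normal Se GD, at -1.25, -1.34 and -1.42 in low Se GD, and at -2.24, -2.46 and -2.34 in low Se non-GD (probe A_51_P172853). The 2 diseased groups overlapped and every diseased array lay above every array without disease, by at least 0.82. Means were -1.26 ± 0.03 in normal Se GD, -1.34 ± 0.08 in low Se GD and -2.35 ± 0.11 in low Se non-GD (SD, n = 3 each). Against low Se non-GD, the log2 difference was 1.01 ± 0.10 (SE) in low Se GD (adjusted p = 0.000815) and 1.08 ± 0.10 in normal Se GD (adjusted p = 0.000485). Between the diseased groups it was 0.075, normal minus low supply, with a 95% interval of -0.15 to 0.30 (adjusted p = 0.705). With normexp background correction the difference at low supply was 0.58 (adjusted p = 0.00674), and without low Se GD replicate 2 and low Se non-GD replicate 3 it was 1.01 with an adjusted p of 0.0565. Within slide 1 it was 1.09 (adjusted p = 0.0530).

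Tlr4, the signalling receptor for lipopolysaccharide, was at -0.83, -0.84 and -0.75 in normal Se GD, at -1.37, -1.07 and -0.88 in low Se GD, and at -1.30, -1.77 and -1.59 in low Se non-GD (probe A_66_P124806). The normal Se GD arrays lay above all others, by 0.035 over the nearest low Se GD array, and the 2 low supply groups overlapped at low Se GD replicate 1. Tlr4 was higher in normal Se GD than in low Se non-GD by 0.74 ± 0.16 (SE, adjusted p = 0.0108). It did not pass the test in low Se GD relative to low Se non-GD (0.45, adjusted p = 0.0817) or in normal Se GD against low Se GD (0.30, 95% interval -0.078 to 0.67, adjusted p = 0.364). With slide as a block the called difference was 0.32 (adjusted p = 0.393), and without low Se GD replicate 2 and low Se non-GD replicate 3 it was 0.73 (adjusted p = 0.0878). The difference at low supply was 0.18 with slide as a block (adjusted p = 0.514), and it was called without low Se GD replicate 1 (0.58, adjusted p = 0.0404) or with low Se non-GD replicate 1 left out (0.57, adjusted p = 0.0440).

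Markers of cells that carry these receptors differed in the same comparisons. Of 14 tested monocyte and macrophage markers, 6 were higher and 2 lower in low Se GD than in low Se non-GD, and 9 were higher and 0 lower in normal Se GD than in low Se non-GD. Of all genes tested, 12.8% were higher and 12.2% lower in the first of these comparisons, and 18.9% and 13.4% in the second. Their mean level was 1.07 to 1.19 on normal Se GD arrays, 0.71 to 0.91 on low Se GD arrays and 0.20 to 0.59 on low Se non-GD arrays. Csf1r, the receptor for macrophage colony-stimulating factor, was higher in low Se GD than in low Se non-GD by 0.70 ± 0.10 (SE), and Siglec1, a marker of marginal metallophilic macrophages, by 1.41 ± 0.24, while the integrin Itgam was lower (-1.29 ± 0.30). Cd163, a scavenger receptor of red pulp macrophages, was not well above background on any low Se non-GD array. It is among the 14 tested because it passed the detection filter through the diseased groups. In bulk spleen, more cells of a type and more RNA per cell cannot be told apart, and the part of these markers in the differences of Cd14 and Tlr4 was not tested.

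**Figure D3:**
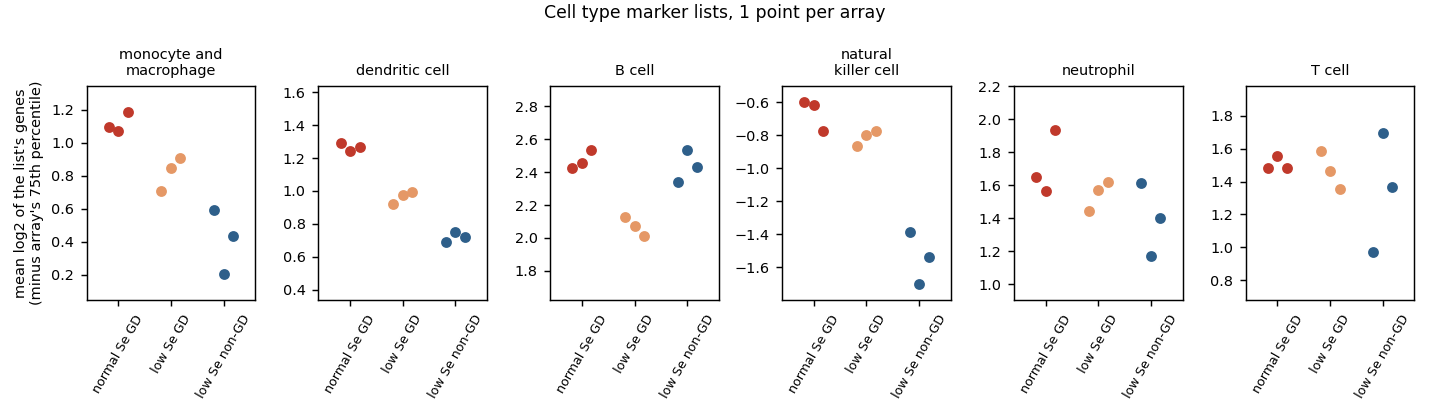
Mean level of 6 lists of cell type markers on each array (y axis, mean over the list's genes in log2 units relative to the 75th percentile of the array), with normal Se GD, low Se GD and low Se non-GD from left to right. The monocyte and macrophage, dendritic cell and natural killer cell lists are lowest on the 3 low Se non-GD arrays, and the B cell list is lowest on the 3 low Se GD arrays, at 2.01 to 2.13.

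Tlr2, which recognises lipopeptides together with Tlr1 or Tlr6, is printed at 10 spots per array, of which 7 to 10 were usable (probe A_51_P452629). Its level was -1.31, -1.34 and -0.87 in normal Se GD, -2.09, -1.57 and -1.36 in low Se GD, and -1.76, -1.56 and -1.66 in low Se non-GD. The SD between spots of 1 array was 0.027 to 0.12, below the SD between arrays in normal Se GD (0.26) and low Se GD (0.38). The normal Se GD arrays lay above the others by a gap of 0.015 over low Se GD replicate 3. No comparison passed the test, with differences of -0.017 for low Se GD relative to low Se non-GD (95% interval -0.50 to 0.47, adjusted p = 0.964), 0.50 for normal against low supply in diseased mice (0.018 to 0.99, adjusted p = 0.243) and 0.49 for normal Se GD against low Se non-GD (adjusted p = 0.116). The sign of the first turned without low Se GD replicate 1 (0.19) or low Se non-GD replicate 2 (0.034) and under quantile or median scaling. With slide as a block it was -0.43 (adjusted p = 0.0505), and the second was 0.14 with slide as a block and 0.29 without low Se GD replicate 1.

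Tlr1, a partner of Tlr2 that is also abundant on B cells, was at 2.40, 2.37 and 2.58 in normal Se GD, at 2.17, 2.17 and 2.10 in low Se GD, and at 2.46, 2.85 and 2.66 in low Se non-GD (probe A_51_P495581). All 3 low Se GD arrays were the lowest of the 9, and the other 2 groups overlapped. Means were 2.45 ± 0.11 in normal Se GD, 2.15 ± 0.04 in low Se GD and 2.66 ± 0.20 in low Se non-GD (SD, n = 3 each). Tlr1 was lower in low Se GD than in low Se non-GD, with a log2 difference of -0.51 ± 0.12 (SE, adjusted p = 0.0194). It was higher in normal Se GD than in low Se GD by 0.30 without passing the test (95% interval 0.018 to 0.58, adjusted p = 0.231), and the difference of normal Se GD from low Se non-GD was -0.21 (adjusted p = 0.228). The sign of the called difference held in all 22 alternatives, at -0.61 to -0.41, and the call was lost in 8 of them, such as with slide as a block (adjusted p = 0.0673), under median scaling (0.147), without low Se GD replicate 2 (adjusted p = 0.0676) or 3 (0.0644) and when low Se non-GD replicate 2 (0.0573) or 3 (0.0709) was left out.

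B cell markers, as a list, were also lowest on the low Se GD arrays. Of 12 tested, 4 were lower and 0 higher in low Se GD than in low Se non-GD (Fcer2a, the low-affinity IgE receptor, by -0.96 ± 0.11 SE), 2 were higher in normal Se GD than in low Se GD, and 2 were higher and 2 lower in normal Se GD than in low Se non-GD. Of all genes tested, 12.2% were lower and 12.8% higher in the first of these comparisons, and 1.27% were called in the second. In the third, 18.9% were higher and 13.4% lower. The mean level of the list was 2.43 to 2.54 in normal Se GD, 2.01 to 2.13 in low Se GD and 2.34 to 2.53 in low Se non-GD. The part of B cells in the level of Tlr1 was not tested.

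Tlr1 is the called member at low supply with a promoter sequence among those used. The 300 bases around its 2 annotated starts, 250 before and 50 after, are shown from RefSeq on build GRCm38.p6. Sequences were used for 7 of the 10 members, in 9 entries. Entries on a whole chromosome were left out by choice, so a member not shown need not lack a sequence. The first entry lies at chr5:64932650-64932949 and the second at chr5:64933509-64933808, both on the minus strand and both written 5′ to 3′ along the gene. Capitals mark matches, on either strand, to letters known from binding sites of interferon regulatory factors (AANNGAAA), of NF-kappaB (GGNNNTTCC) and of the myeloid and B cell factor PU.1 (GAGGAAGT). The motifs were chosen with these sequences in view.
Tlr1 entry 1: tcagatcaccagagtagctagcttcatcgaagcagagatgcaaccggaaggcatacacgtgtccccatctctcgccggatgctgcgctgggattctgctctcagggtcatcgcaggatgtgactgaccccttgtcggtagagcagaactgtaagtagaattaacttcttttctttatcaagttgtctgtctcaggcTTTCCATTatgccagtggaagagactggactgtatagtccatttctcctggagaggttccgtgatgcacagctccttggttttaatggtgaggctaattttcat
Tlr1 entry 2: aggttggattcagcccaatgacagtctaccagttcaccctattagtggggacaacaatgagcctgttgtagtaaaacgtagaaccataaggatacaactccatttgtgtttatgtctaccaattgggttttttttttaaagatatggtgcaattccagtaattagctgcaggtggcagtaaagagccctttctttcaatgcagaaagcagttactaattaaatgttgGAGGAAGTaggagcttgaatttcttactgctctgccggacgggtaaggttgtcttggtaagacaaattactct
Entry 1 holds the interferon regulatory factor letters once, on the opposite strand from base 197 of the window, and entry 2 holds the PU.1 letters once, from base 228. Of 32851 promoter windows of this length, 23.9% held the interferon regulatory factor letters, 18.5% the NF-kappaB letters and 3.2% the PU.1 letters. Members that were not called held such letters too. Tlr6 held the interferon regulatory factor letters 4 times in entry 1 and the NF-kappaB letters once in entry 2. Tlr2 held the letters of both 2 times each, Tlr5 the NF-kappaB letters once and Tlr9 the PU.1 letters once, while Tlr8 held none. Such a match is a description of the letters and not evidence of binding.

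Tlr6, the other partner of Tlr2, was at -0.70, -0.73 and -0.73 in normal Se GD, at -0.82, -0.88 and -1.05 in low Se GD, and at -1.17, -0.89 and -1.04 in low Se non-GD (probe A_52_P117393). The normal Se GD arrays were the highest 3, and the 2 low supply groups overlapped. Differences were small and none was called, at 0.12 for low Se GD relative to low Se non-GD (adjusted p = 0.478), 0.19 for normal against low supply in diseased mice (adjusted p = 0.372) and 0.31 for normal Se GD against low Se non-GD (adjusted p = 0.0609). The last was called by limma in 3 of 21 alternatives, with an adjusted p of 0.0393 at the lowest. Among them were the fit with low Se non-GD replicate 2 left out (0.38, adjusted p = 0.0474) and the authors' deposited table of log2 values (0.35, adjusted p = 0.0431).

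Tlr5, the flagellin receptor, was dim (probe A_55_P2131428). It was well above background on 2 of 3 normal Se GD arrays, 3 of 3 low Se GD arrays and 1 of the 3 without disease. Levels were -4.51, -4.46 and -5.34 in normal Se GD, -5.10, -4.95 and -4.36 in low Se GD, and -5.33, -5.71 and -6.08 in low Se non-GD. The low Se GD arrays lay above those without disease, and normal Se GD replicate 3, which was not well above background, lay among the low Se non-GD values. The differences from low Se non-GD were 0.90 in low Se GD (95% interval 0.18 to 1.63, adjusted p = 0.0718) and 0.94 in normal Se GD (0.21 to 1.66, adjusted p = 0.0535), and between the diseased groups 0.035 (-0.69 to 0.76, adjusted p = 0.965). Without normal Se GD replicate 3 the first 2 were called, at 0.90 (adjusted p = 0.0269) and 1.22 (adjusted p = 0.0125), as was the second with low Se non-GD replicate 1 left out (1.12, adjusted p = 0.0496). The first was called in 5 of 21 alternatives, among them quantile (adjusted p = 0.0462) and median scaling (0.0318). The others were the authors' deposited table (0.0430) and the limma fit of only the 6 arrays compared (0.0482). With normexp background correction the first was -0.26 and the second 0.049 (adjusted p = 0.917).

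Tlr7, the endosomal receptor for single-stranded RNA of plasmacytoid dendritic cells, macrophages and B cells, had the highest called difference of the members. Its brighter probe (A_55_P2050932) was at -0.28, -0.31 and -0.13 in normal Se GD, at -0.36, -0.31 and -0.39 in low Se GD, and at -1.48, -1.72 and -1.51 in low Se non-GD. The diseased groups overlapped, and both lay above low Se non-GD, by 1.09 at the nearest arrays. Means were -0.24 ± 0.10 in normal Se GD, -0.35 ± 0.04 in low Se GD and -1.57 ± 0.13 in low Se non-GD (SD, n = 3 each). Against low Se non-GD, the difference was 1.22 ± 0.10 (SE) in low Se GD (adjusted p = 0.000574) and 1.33 ± 0.10 in normal Se GD (adjusted p = 0.000348). Normal minus low supply in diseased mice gave 0.11, with a 95% interval of -0.13 to 0.35 (adjusted p = 0.590).

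The other Tlr7 probe (A_55_P2129047) was at -0.57, -0.77 and 0.14 in normal Se GD, at -0.59, -0.77 and -0.92 in low Se GD, and at -2.05, -2.29 and -2.23 in low Se non-GD. Its groups fell in the same order, with normal Se GD replicate 3 apart from the other 2 arrays of its group. With every probe tested by itself, its differences from low Se non-GD were 1.43 in low Se GD (adjusted p = 0.00422) and 1.79 in normal Se GD (adjusted p = 0.00138), and 0.36 between the diseased groups (adjusted p = 0.408). Of all probes, 25.1%, 33.5% and 2.18% were called in these 3 comparisons. The difference of the brighter probe at low supply held its call in 21 of 22 alternatives, at 0.96 to 1.32, among them without low Se GD replicate 2 and low Se non-GD replicate 3 (1.22, adjusted p = 0.0434). Within slide 1 it was 1.21 (adjusted p = 0.0530).

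Dendritic cell markers also differed in the comparisons in which Tlr7 was called. Of 11 tested, 5 were higher and 0 lower in low Se GD than in low Se non-GD. In normal Se GD, 6 were higher and 0 lower than in low Se non-GD. The shares of all genes were 12.8% higher and 12.2% lower in the first of these comparisons. In the second they were 18.9% and 13.4%. Bst2, a marker of plasmacytoid dendritic cells that interferon also raises, was higher in low Se GD than in low Se non-GD by 0.96 ± 0.27 (SE). This was the highest difference of the list, whose median was 0.30 and whose lowest was -0.71. Of the 11 genes, 6 were not called in this comparison. In normal Se GD against low Se non-GD the list ran from -1.24 to 1.45. The mean level of the list was 1.24 to 1.29 in normal Se GD, 0.92 to 0.996 in low Se GD and 0.69 to 0.75 in low Se non-GD. Natural killer cell markers were higher than in low Se non-GD for 5 of 8 in low Se GD samples. They were higher than in that group for 7 of 8 in normal Se GD samples. The shares of all genes that were higher were again 12.8% and 18.9%. The part of these cells in the difference of Tlr7 was not tested.

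Tlr8, the neighbour of Tlr7 in sequence and function, was at the detection limit (probe A_55_P1996266). It was well above background on 2 of 3 arrays in normal Se GD, 2 of 3 in low Se GD and 0 of 3 in low Se non-GD. Levels were -6.19, -5.89 and -6.26 in normal Se GD, -6.57, -6.24 and -4.23 in low Se GD, and -7.62, -7.07 and -6.69 in low Se non-GD. One low Se GD array, replicate 3, stood far above the rest. No fold is given against low Se non-GD, since the signal there is only a bound, and the adjusted p was 0.103 for low Se GD and 0.213 for normal Se GD against that group and 0.716 between the diseased groups. Without low Se GD replicate 3 the second was 0.0239, and the difference between the diseased groups was 0.29 in place of -0.43.

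Tlr9, the receptor for unmethylated DNA, was at 1.70, 1.73 and 0.70 in normal Se GD, at 1.87, 1.57 and 1.73 in low Se GD, and at 1.68, 1.47 and 1.5 in low Se non-GD (probe A_51_P432563). All 3 groups overlapped, and normal Se GD replicate 3 was the lowest of the 9 arrays. No comparison was called. The differences were 0.17 in low Se GD relative to low Se non-GD (adjusted p = 0.688), -0.35 for normal against low supply in diseased mice (95% interval -0.96 to 0.27, adjusted p = 0.524) and -0.17 for normal Se GD against low Se non-GD (adjusted p = 0.658). Without normal Se GD replicate 3 the second was -0.0054 and the last 0.17.

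Tlr3, the receptor for double-stranded RNA, had the highest log2 difference of the members between the diseased groups, though it was not called. It was at -2.50, -2.53 and -3.12 in normal Se GD, at -3.81, -3.55 and -3.26 in low Se GD, and at -4.02, -3.79 and -3.73 in low Se non-GD (probe A_52_P85174). The 3 normal Se GD arrays were the highest of the 9, replicate 3 by 0.14 over the nearest low Se GD array, and the 2 low supply groups overlapped. Tlr3 was higher in normal Se GD than in low Se non-GD by 1.13 ± 0.21 (SE, adjusted p = 0.00552). Normal against low supply in diseased mice gave 0.82 ± 0.21 (95% interval 0.34 to 1.31), which did not pass the test (adjusted p = 0.0905), and low Se GD relative to low Se non-GD gave 0.31 (adjusted p = 0.325).

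The difference between the diseased groups was not called in 18 of 22 alternatives, with adjusted p up to 0.512 (without low Se GD replicate 2 and low Se non-GD replicate 3) and 0.275 without low Se GD replicate 2 alone. It was called at 1.03 without normal Se GD replicate 3 (adjusted p = 0.0333), 0.89 within slide 2 (adjusted p = 0.0413) and 0.89 with slide as a block (adjusted p = 0.0353). The last 2 estimate the same difference, from the arrays of slide 2, and are not separate checks. The size over all 22 alternatives was 0.66 to 1.03. With normexp background correction the called difference from low Se non-GD was 0.51 and that of low Se GD from low Se non-GD was -0.15. The promoter of Tlr3 is shown as that of the other called member with an entry among those used. It lies at chr8:45410331-45410630 on the minus strand of GRCm38.p6 and is written 5′ to 3′, with capitals for the same 3 sets of letters.
Tlr3: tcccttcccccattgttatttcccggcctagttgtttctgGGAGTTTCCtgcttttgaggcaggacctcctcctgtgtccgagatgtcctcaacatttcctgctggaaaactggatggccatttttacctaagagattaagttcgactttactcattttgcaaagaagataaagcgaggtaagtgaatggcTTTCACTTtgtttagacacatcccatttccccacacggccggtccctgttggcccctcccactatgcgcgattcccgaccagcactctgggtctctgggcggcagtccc
This window holds the NF-kappaB letters once, from base 41, and the interferon regulatory factor letters once, on the opposite strand from base 192. No promoter is shown for Cd14, Tlr4 and Tlr7.

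**Figure D4:**
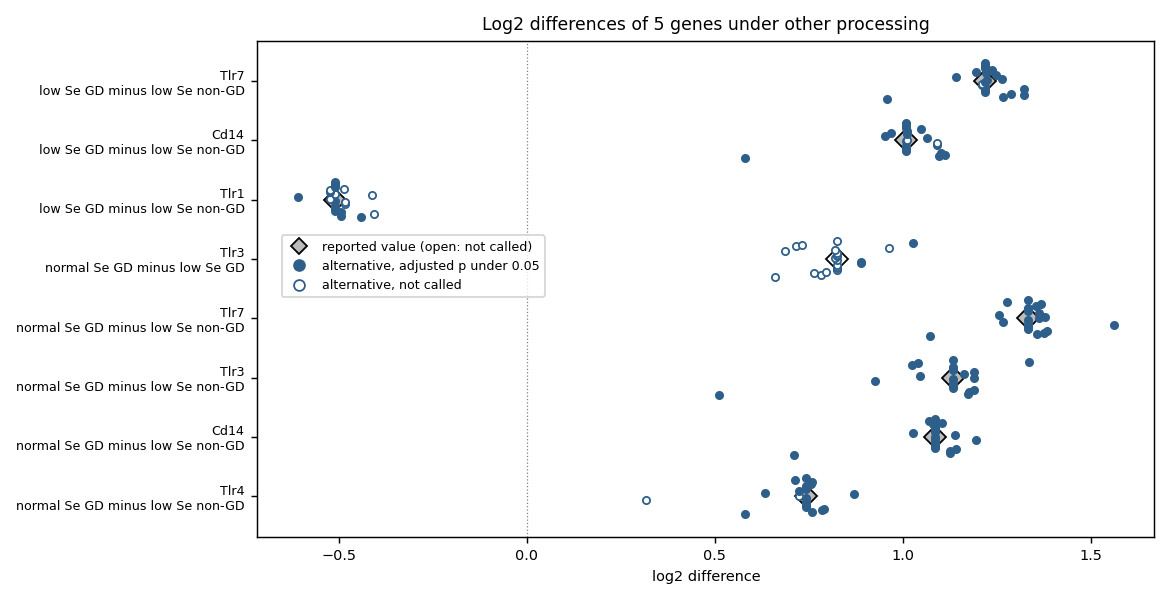
Log2 differences of Tlr7, Cd14, Tlr1, Tlr3 and Tlr4 (x axis) in the comparisons named on the left, with the reported value as a diamond and each alternative way of processing as a circle, filled where the adjusted p was under 0.05. No value crosses 0, Tlr1 stays between -0.61 and -0.41, and the value of Tlr4 lowest on the axis, 0.32, is the one with slide as a block.

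By likeness of their levels over the 9 arrays, measured as the root mean square difference after centring each gene on its own mean, the nearest of 13358 genes to Cd14 were Mmrn2 (0.047), Itgb5 (0.055) and Mtus1 (0.066), against an SD of Cd14 itself of 0.53. Those nearest to Tlr7 were Calr (0.058), Mtm1 (0.079) and Nek1 (0.081), and those nearest to Tlr1 were Ptpn1 (0.050), Panx1 (0.056) and Mical1 (0.057). For Tlr4 they were Pcolce (0.043), Dennd2a (0.050) and Glrx (0.060). Tlr3 had no gene as close, with Rufy4 (0.16), Stra6 (0.19) and Icos (0.20). Likeness is a description with no test.

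Of 81 genes in 6 lists of Toll-like receptor signalling, 75 could be tested. In low Se GD relative to low Se non-GD, 9 were higher and 10 lower, or 25.3%, close to the 24.9% of all genes. In normal Se GD against low Se GD, 3 were higher and 0 lower, or 4%, where all genes gave 1.27%, and in normal Se GD against low Se non-GD, 22 were higher and 5 lower, or 36%, where all genes gave 32.3%. The 22 include Il6, which was not well above background on any low Se non-GD array. Median log2 differences of the 75 genes were -0.0075, 0.25 and 0.18. Counts per list given below stand beside 12.8% of all genes higher and 12.2% lower in the first comparison. In the last comparison these shares were 18.9% and 13.4%. The 3 called between the diseased groups, Ly96, Traf6 and Nfkbiz, lose their calls wherever no gene at all was called there, as under normexp, median scaling, no detection filter or the fit of only the 6 arrays compared (0 genes each by limma).

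**Figure D5:**
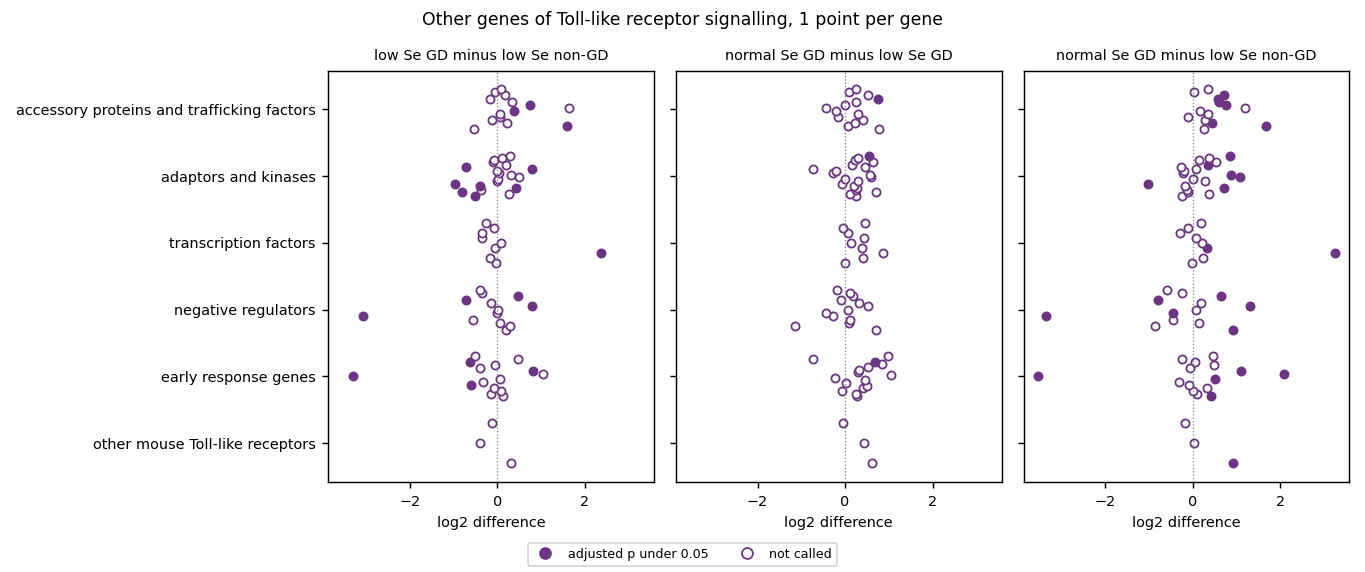
Log2 differences of the tested genes of the 6 lists of Toll-like receptor signalling in the 3 comparisons (x axis), 1 point per gene, filled where the adjusted p was under 0.05 and left out where 1 group was below background. Otud7b at -3.07, Cxcl1 at -3.30 and Irf7 at 2.37 stand apart in the left panel, and 3 points are filled in the middle panel.

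Among 14 accessory proteins and trafficking factors, 3 were higher and 0 lower in low Se GD than in low Se non-GD. These were Cd36, a scavenger receptor that works with Tlr2 and Tlr6 (1.59 ± 0.19 SE, adjusted p = 0.00183), Lgmn, an endosomal protease that cleaves Toll-like receptors (0.76 ± 0.11, adjusted p = 0.00318), and the receptor chaperone Hsp90b1 (0.37 ± 0.089, adjusted p = 0.0204). Cd36 is also a gene of fat cells. Of 9 fat tissue markers, 4 were higher in the same comparison, against 12.8% of all genes. The list mean was -1.18 to 1.19 in low Se GD and -4.08 to -1.44 in low Se non-GD. In normal Se GD that mean was -3.78 to -3.47, and Cd36 was higher there than in low Se non-GD by 1.67 ± 0.19 (adjusted p = 0.00117). The part of fat cells in the level of Cd36 was not tested. Lgmn (0.76) and the endolysosomal transporter Slc15a3 (0.71) were also among the 6 higher and 0 lower in normal Se GD against low Se non-GD. Ly96, the protein through which Tlr4 binds lipopolysaccharide, was higher in normal Se GD than in low Se GD by 0.74 ± 0.13 (adjusted p = 0.0448) and than in low Se non-GD by 0.57 ± 0.13 (adjusted p = 0.0117).

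Of 20 adaptors and kinases, 2 were higher and 5 lower in low Se GD than in low Se non-GD. The lower ones included the kinases Irak2 (-0.97 ± 0.13 SE, adjusted p = 0.00252), Ikbkb (-0.80 ± 0.17, adjusted p = 0.0128) and Tbk1 (-0.73 ± 0.13, adjusted p = 0.00688), and the higher ones were Tab3 (0.80 ± 0.21) and Ikbkg (0.43 ± 0.13). In normal Se GD against low Se non-GD, 5 were higher and 1 lower. Myd88, the adaptor shared by all the Toll-like receptors described here except Tlr3, was higher there by 1.08 ± 0.25 (adjusted p = 0.0134). Also higher were Pik3ap1, an adaptor to phosphoinositide 3-kinase (0.88 ± 0.20), and the ubiquitin ligase Traf6 (0.85 ± 0.10), while Irak2 was lower (-1.03 ± 0.13). Traf6 was the 1 member of this list higher in normal Se GD than in low Se GD (0.55 ± 0.10, adjusted p = 0.0448).

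Among 9 transcription factors, Irf7, which drives interferon genes downstream of Tlr7 and Tlr9, was the 1 called in low Se GD relative to low Se non-GD, and it was higher by 2.37 ± 0.44 (SE, adjusted p = 0.00732). It was higher by 3.24 ± 0.44 in normal Se GD against low Se non-GD (adjusted p = 0.0018), where Irf8, a factor of dendritic cells, was also higher (0.33 ± 0.084).

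Of 13 negative regulators, 2 were higher and 2 lower in low Se GD than in low Se non-GD, and 3 were higher and 3 lower in normal Se GD than in low Se non-GD. The deubiquitinase Otud7b was lower by the most, at -3.07 ± 0.57 (SE, adjusted p = 0.00733) and -3.35 ± 0.57 (adjusted p = 0.00388), and Tnip1, a partner of the ubiquitin-editing enzyme A20, was lower at -0.71 ± 0.15 and -0.79 ± 0.15. Socs1, a suppressor of cytokine signalling, was higher by 0.79 ± 0.14 (adjusted p = 0.0063) and 1.32 ± 0.14 (adjusted p = 0.000889), and Tollip by 0.46 ± 0.14 and 0.65 ± 0.14. In normal Se GD the deubiquitinase Cyld was also higher than in low Se non-GD (0.91 ± 0.18), and the ubiquitin ligase Rnf216 was lower (-0.45 ± 0.12).

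Of 16 early response genes, 1 was higher and 3 lower in low Se GD than in low Se non-GD, and 5 were higher and 1 lower in normal Se GD than in low Se non-GD. The chemokine Cxcl1 was lower, at -3.30 ± 0.59 (SE, adjusted p = 0.00667) and -3.53 ± 0.59 (adjusted p = 0.00379). Nfkbiz, an atypical NF-kappaB regulator, was lower in low Se GD than in low Se non-GD (-0.62 ± 0.10), as was the costimulatory receptor Cd40 (-0.60 ± 0.17), and Nfkbiz was higher in normal Se GD than in low Se GD (0.68 ± 0.10, adjusted p = 0.0427). The cytokine Il10 was higher than in low Se non-GD by 0.81 ± 0.10 in low Se GD samples and by 1.1 ± 0.10 in normal Se GD samples, where it was well above background once in 3 arrays. The interferon-induced chemokine Cxcl10 was higher in normal Se GD than in low Se non-GD by 2.09 ± 0.34 (adjusted p = 0.00327). Il6 was called in the same comparison (adjusted p = 0.0127) but was well above background on 2 of 3 normal Se GD arrays and none (0 of 3) without disease, and no fold is given. It is 1 of the 5 counted as higher there, and it passed the detection filter through the diseased groups.

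Of the 3 Toll-like receptors that mice have and humans lack as working genes, Tlr11 was higher in normal Se GD than in low Se non-GD, by 0.93 ± 0.13 (SE, adjusted p = 0.00196). Tlr12 and Tlr13 were called in no comparison.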

How the data were processed

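Spleen RNA of 9 mouse samples was hybridised to Agilent 1-colour arrays. Intensity values of each spot were deposited as linear signals that had been background-subtracted, per the file headers, in Feature Extraction 11.0.1.1 without scaling between arrays, and 0 or 1 marks for detection and outliers. A deposited table of log2 values by the authors, made by steps not given in the sources used here, served as an alternative. In it, each low Se non-GD column was closest to a different array of its own group, so replicate numbers there are uncertain and group membership is not.

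Processed signals were taken as log2 minus each array's 75th percentile over 43020 non-control spots. Outlier spots were left out, spots of a probe averaged, and a gene represented by its brightest probe, named through a GRCm38.p6 table. No gene coordinates are given, since the array was annotated on another build. Genes well above background on at least 3 of 9 arrays entered the test (26325), done in limma 3.58.1 (R 4.3.3), all 9 arrays in 1 fit, with Benjamini-Hochberg adjustment over all and a threshold of 0.05. The code was tested on simulated data. Values after ± are standard errors of differences, or SD where so marked. Alternatives changed the background correction, scaling, detection filter, probe choice, slide or replicate block and the arrays in the fit. Pathway genes and nearest genes were named by a rule: at most the 3 highest and 3 lowest called per list and comparison, and the 3 nearest genes to each called member. Members and lists were chosen with earlier results of these data known. The normexp alternative used median spot signals, since the files hold no mean signal, with an offset of 50.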

Additional observations from a re-analysis of the deposited data

How the results depend on the processing

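Cd14 and Tlr7 kept their direction in both comparisons with low Se non-GD, Tlr3 and Tlr4 in that with normal Se GD and Tlr1 in its called one, under every alternative run. The count of members called, 3 of 10 for low Se GD relative to low Se non-GD, was 0 within slide 1 and 1 without low Se GD replicate 2 and low Se non-GD replicate 3. For normal Se GD against low Se GD, where it was 0, it was 1 (Tlr3) with only genes well above background on all 9 arrays, within slide 2 and with slide as a block, and 0 to 1 over the fits without 1 array. Within slide 2 and with slide as a block the estimated difference is the same, so these are not separate checks. Counts over all genes moved more. For low Se GD relative to low Se non-GD (6556) they were 940 within slide 1, 269 without the in-between pair and 3448 to 10787 without 1 array. For normal Se GD against low Se GD (334) they were 0 under normexp, median scaling, no filter, the in-between pair left out and only the 6 arrays compared, 3 in the authors' deposited table, 46 under quantile scaling, 695 for every probe, 1288 with detection on all arrays, 1713 with slide as a block, 2794 within slide 2 and 0 to 1076 without 1 array. For normal Se GD against low Se non-GD (8514) they were 5552 under normexp, 4828 with slide as a block, 3044 without the in-between pair and 5415 to 11538 without 1 array. The cause was not tested.

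Signs of differences that were not called turned in places. For low Se GD relative to low Se non-GD, normexp gave -0.15 for Tlr3 and -0.26 for Tlr5, and Tlr2 was 0.052 under quantile scaling, 0.087 under median scaling, 0.069 in the authors' deposited table and -0.18 to 0.19 without 1 array. For normal Se GD against low Se GD, Tlr8 was 0.17 under normexp and -0.87 to 0.29 without 1 array, Tlr9 was 0.069 with slide as a block or within slide 2, and Tlr5 was -0.091 under quantile scaling and in the authors' deposited table, -0.027 under median scaling, -0.040 without the in-between pair and -0.12 to 0.32 without 1 array. For normal Se GD against low Se non-GD, with slide as a block Tlr2 was -0.29 and Tlr9 0.39, the last with -0.35 to 0.17 without 1 array. The fitted values of Tlr8 against low Se non-GD, where its signal is only a bound, have no direction to read (-0.23 for low Se GD under normexp, and for normal Se GD -0.053 under normexp and -0.24 with slide as a block). The processing set the median of all genes for low Se GD relative to low Se non-GD, reported as 0.076, at -0.16 under normexp and 0.18 under median scaling, and the share of called genes that were higher was 51.2%, against 40.9% and 58.8%.

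Deviations of samples with the same replicate number correlated at -0.21 to 0.10. Replicate numbers in low Se non-GD are uncertain, so these values cannot show whether its samples were paired with those of the diseased groups. The replicate block uses the same numbers. With the replicate block, 3, 0 and 4 members and 5150, 0 and 7186 genes were called in the 3 comparisons.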
